A study of Arabidopsis thaliana with 15 samples.

Results

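The receptor-like protein (RLP) genes of Arabidopsis thaliana were followed in leaf RNA of prp4k3 and Col-0 plants. The set was a list of 50 loci numbered within RLP1 to RLP57, chosen by family name, and 48 of them had a row among the 73194 features of the RNA-seq count table. The family was put forward with earlier results of this same comparison known, so the counts of its members are a description and none of them tests the family. The prp4k3 group had 3 libraries from untreated leaves of 3-week-old plants of a line that the design text also calls amiR-PRP4K3, amiR being the usual short form of artificial microRNA. The Col-0 group had 3 libraries from untreated leaves of the same age of Col-0, a wild-type laboratory accession. The promoter driving the amiR construct and the number of independent lines or pooled plants are not stated in the labels or design text. Separate plants are not named as the source of each library. The p-values therefore judge the group difference only against the scatter among these samples, and that scatter may be technical.

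RLPs are cell-surface proteins with extracellular leucine-rich repeats, a single membrane-spanning segment and a short tail without a kinase. They therefore signal through partner kinases, above all SOBIR1 and the co-receptor BAK1, and several of them recognise peptides or proteins of bacteria, fungi and oomycetes. A minority act in development: CLV2 in stem cell maintenance, TMM in stomatal patterning and RLP44 in signalling from the cell wall to the brassinosteroid pathway. Many RLP genes lie beside close relatives in the genome, so reads from near-identical stretches may be shared or lost between them.

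Library totals ranged from 16041754 to 16955629 counts in prp4k3 and from 18305640 to 19344157 counts in Col-0. Levels below are CPM, read counts relative to library size after trimmed-mean scaling, a method that sets the bulk of features equal between libraries. On this scale 3 counts correspond to between 0.131 and 0.139 CPM in prp4k3 and between 0.204 and 0.222 CPM in Col-0. Of 18609 tested features 65.8% were called at an adjusted p under 0.05, 33.9% higher and 31.9% lower in prp4k3. With total-count scaling 87.2% of the called features were higher, against 51.5% with trimmed-mean scaling, and all features had a median log2 fold change of 0.86 in place of 0.02. Plastid-encoded genes held between 37.81% and 39.51% of all counts in prp4k3 libraries and between 47.97% and 50.85% in Col-0 libraries. The part of this in the total-count values was not tested. The reference table gives no locus the name PRP4K3. The targeted gene was therefore looked for only in AT3G25840 and AT1G13350, known from general knowledge as PRP4 kinase genes. It may be neither of them, since no other locus was read for this. AT3G25840 had 6.42, 5.99 and 6.37 CPM in prp4k3, against 11.1, 9.70 and 9.33 CPM in Col-0, and was called lower (-0.68 ± 0.13, adjusted p = 0.00116), but it lay at 0.16 with total-count scaling (adjusted p = 0.282). AT1G13350 lay at -0.41 ± 0.18 (adjusted p = 0.0646), and at 0.43 with total-count scaling (adjusted p = 0.0416). The direction in both genes thus turned with the scaling, and they do not check the labels. Leaf identity was clear in both groups: 5 mesophyll genes of photosynthesis summed to between 16120 and 17410 CPM in prp4k3 and between 50240 and 53490 CPM in Col-0, and all 5 were called lower. In bulk leaf RNA fewer cells of a type and less RNA per cell cannot be told apart. Root markers PLT1 and RHD6 had 0 counts in all 6 libraries, and the 5 root markers summed to between 18.7 and 27.8 CPM in prp4k3 and between 28.6 and 43.6 CPM in Col-0, nearly all of it from SHR and SCR, of which SHR was called lower. The 6 shoot apex and flower markers summed to between 3.72 and 9.17 CPM in prp4k3 and between 5.61 and 6.92 CPM in Col-0. STM, at a mean of 2.99 CPM in prp4k3 and 5.83 CPM in Col-0, was called lower and made up most of the Col-0 sum. AP1 was called higher, with means of 1.16 and 0.070 CPM. The untested AP3, AG, LFY and WUS averaged 0.741, 0.626, 0.283 and 0.074 CPM in prp4k3. In Col-0 they averaged 0.023, 0.427, 0.097 and 0 CPM, and the groups overlapped for AG and LFY. Whether these shifts in marker levels bear on the RLP values was not tested.

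Most expressed RLP genes were higher in prp4k3, and several of these were nearly silent in Col-0, while the members known from development were lower or did not pass the test on the trimmed-mean scale. Summed over the 48 loci, RLP transcripts came to 969.6, 768.8 and 765.5 CPM in prp4k3, against 126.8, 134.4 and 128.3 CPM in Col-0. Without RLP23 and RLP34, the members with the highest levels in prp4k3, the sums were 604, 500.3 and 489 CPM in prp4k3 and 119, 125 and 116 CPM in Col-0. Of the 50 loci, 47 had a count in some library and 42 passed the filter on low counts, and edgeR's quasi-likelihood test called 31 higher and 4 lower, where 33.9% and 31.9% of all features were called in those directions. Total-count scaling put 35 of the 42 higher and 2 lower, where 67.1% of all features were higher and 9.81% lower. The median log2 fold change over the 42 was 2.46 (quartiles 0.38 and 4.22), beside 0.02 over all features (quartiles -0.63 and 0.76). A rise of at least 2 on the log2 scale was reached by 24 members and by 6.93% of all features.

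The filter itself shapes these counts. The filter level was 0.567 counts per 1e6 counts, unscaled. Of the 42 tested members, 17 reached it in all 3 prp4k3 libraries but not in all 3 Col-0 libraries. These 17 entered the test through the prp4k3 libraries, the group in which all but RLP3 were called higher. RLP56 reached the level in 2 prp4k3 libraries and 1 Col-0 library. The 24 members that reached it in all 3 Col-0 libraries comprised 15 called higher and 4 called lower, and their median was 0.96 on the log2 scale. Among the 16480 features that did so, 30.3% were higher and 35.8% lower, with a median of -0.08. In 31 members every prp4k3 library lay above every Col-0 library, a pattern seen in 36.5% of all features, and in 6 every prp4k3 library lay below, as in 34.0% of all features.

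**Figure D1:**
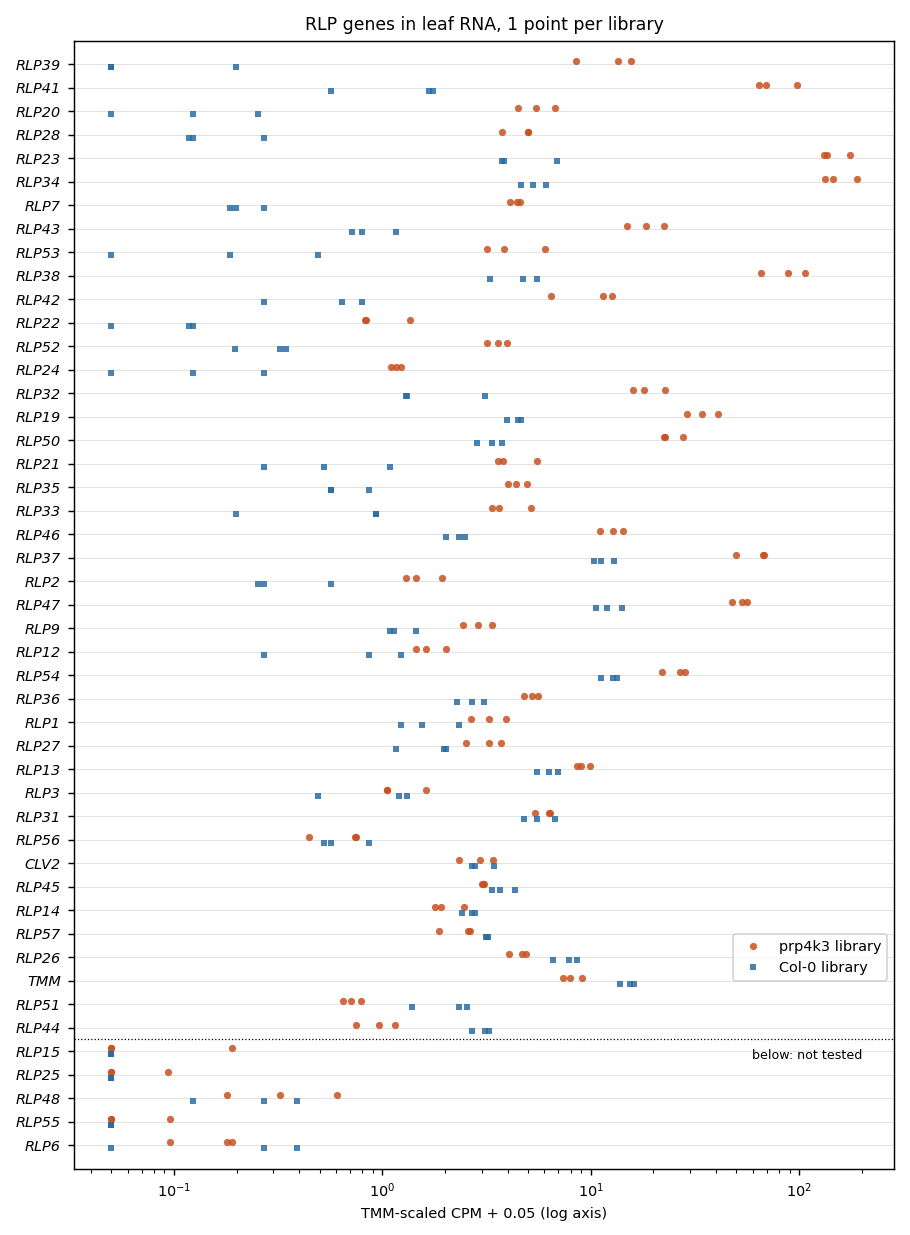
CPM plus 0.05 on a log axis for each of the 47 RLP genes with a count, 1 point per library (circles prp4k3, squares Col-0), ordered by log2 fold change. The groups lie apart by more than a factor of 10 in the upper rows, where RLP23 and RLP34 exceed 100 CPM in all 3 prp4k3 libraries, and cross over in the lower part, where TMM, RLP51 and RLP44 lie lower in prp4k3.

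**Figure D2:**
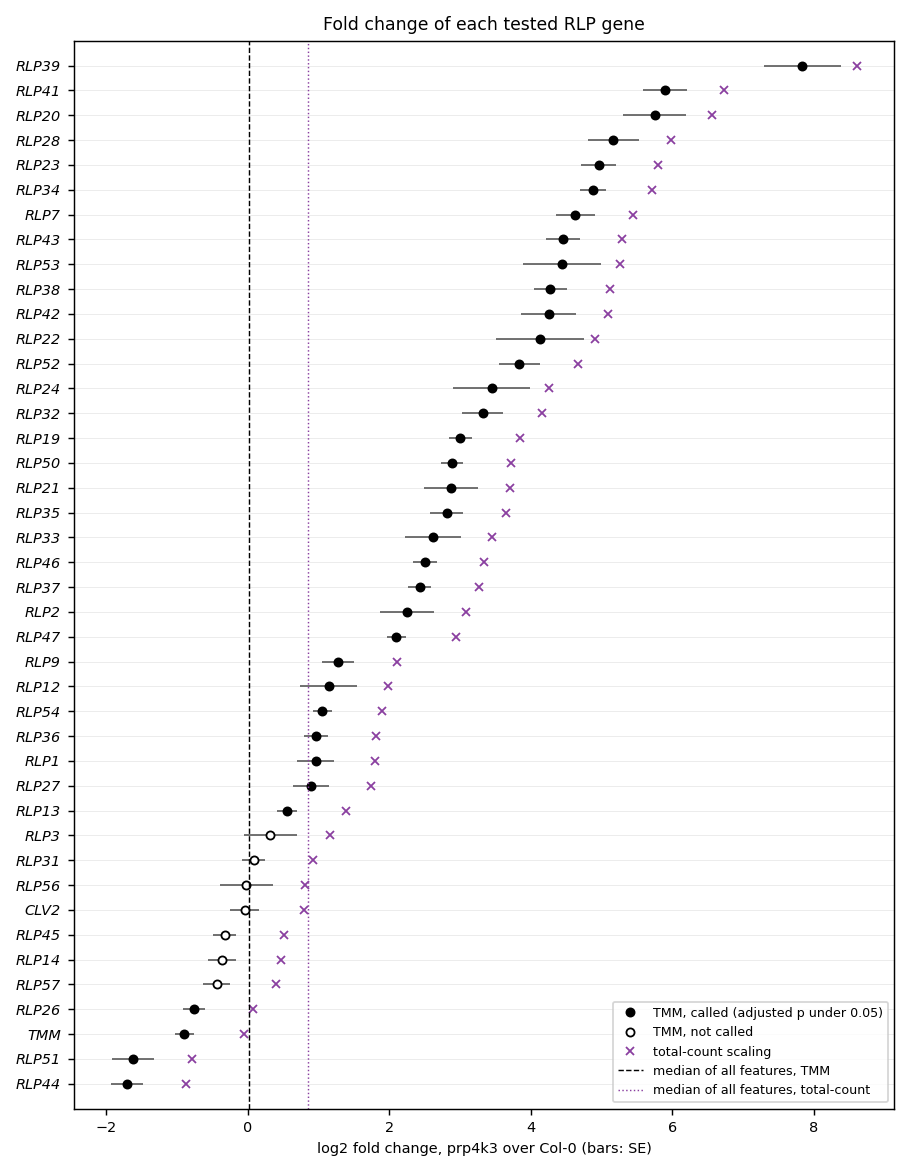
Log2 fold change of prp4k3 over Col-0 with its standard error for the 42 tested RLP genes under trimmed-mean scaling (circles, filled where called) and under total-count scaling (crosses), with the median of all features under each scaling (0.02 dashed, 0.86 dotted). All crosses lie to the right of their circles by about the distance between the lines, and CLV2, RLP56, RLP45, RLP14, RLP57 and RLP26 change sign.

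RLP23, RLP32, RLP42 and RLP1, for which a microbial ligand is described, were called higher in prp4k3. RLP30 and RLP3, also tied to resistance, were not: RLP30 had no counts in any library, and RLP3 did not pass the test. RLP23 was the most abundant RLP transcript in prp4k3 per length of gene. RLP23 (AT2G32680) binds the nlp20 peptide found in NLP toxins of bacteria, fungi and oomycetes. It had 176, 136 and 131 CPM in prp4k3, against 3.69, 3.80 and 6.81 CPM in Col-0. The groups lay far apart, the lowest prp4k3 library being well above the highest Col-0 library, and the log2 fold change was 4.96 ± 0.24 (SE, adjusted p = 5.53e-07). RLP32 (AT3G05650), the receptor of bacterial translation initiation factor 1, had 22.6, 17.9 and 15.98 CPM in prp4k3 and 1.25, 3.05 and 1.26 CPM in Col-0. It rose by 3.32 ± 0.29 (adjusted p = 9.19e-06), with Col-0 replicate 2 above the other 2 Col-0 libraries.

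RLP42 (AT3G25020), also named RBPG1, responds to fungal endopolygalacturonases, enzymes that cut pectin. Its levels were 12.6, 6.41 and 11.4 CPM in prp4k3 and 0.590, 0.747 and 0.222 CPM in Col-0. Replicate 2 was the lowest prp4k3 library and still lay far above every Col-0 library. The log2 fold change was 4.25 ± 0.39 (adjusted p = 1.17e-05). RLP1 (AT1G07390), described as the receptor of a Xanthomonas preparation called eMax, rose less, by 0.96 ± 0.26 (adjusted p = 0.00941). It had 3.19, 3.86 and 2.61 CPM in prp4k3, against 2.29, 1.49 and 1.18 CPM in Col-0, so the lowest prp4k3 library lay just above the highest Col-0 library.

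RLP30 (AT3G05360), needed for resistance to the fungus Sclerotinia sclerotiorum, had 0 counts in all 6 libraries, which allows up to 0.139 CPM in a prp4k3 library and up to 0.222 CPM in a Col-0 library. It overlaps AT3G05350, which had 3214 counts in all, and how reads in such an overlap were assigned is not stated, so the 0 may not show a lack of transcript. RLP3 (AT1G17250), a gene of resistance to Fusarium oxysporum, did not pass the test (0.32 ± 0.37, adjusted p = 0.47). The RLP3 libraries overlapped, with 1.004, 1.58 and 1.01 CPM in prp4k3 and 0.443, 1.15 and 1.26 CPM in Col-0. Without Col-0 replicate 1 its log2 fold change was -0.022, and under total-count scaling it was 1.16 (adjusted p = 0.016).

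Immune members without a known ligand went in opposite directions. RLP52 (AT5G25910), which limits growth of a powdery mildew that does not normally infect Arabidopsis, had 3.54, 3.90 and 3.11 CPM in prp4k3 and 0.148, 0.271 and 0.296 CPM in Col-0, where the gene had 10 counts in all. It rose by 3.84 ± 0.29 (adjusted p = 4.21e-06). RLP51 (AT4G18760), named SNC2 for a mutant form that switches on salicylic acid defence, was among the few members to fall. It had 0.655, 0.743 and 0.595 CPM in prp4k3, against 2.29, 2.51 and 1.33 CPM in Col-0, and its groups did not overlap although Col-0 replicate 3 was nearer to prp4k3. The log2 fold change was -1.62 ± 0.30 (adjusted p = 0.000948) with trimmed-mean and -0.78 (adjusted p = 0.0384) with total-count scaling, and was called under both.

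The largest rises were those of RLP39, RLP41, RLP20, RLP28, RLP23 and RLP34, and all 6 kept their call and direction in the 15 alternatives fitted. RLP39 (AT3G24900) had 357, 182 and 295 counts in prp4k3 and 0, 0 and 2 counts in Col-0. The ratio was 263 with an exact 95% counting interval of 72.6 to 2175, and it rests on Col-0 replicate 3, since the other 2 Col-0 libraries held no read. RLP41 (AT3G25010), which lies near RLP39 and RLP42 by locus number, was the more abundant gene. It had 97.6, 64.1 and 69.4 CPM in prp4k3 and 0.517, 1.70 and 1.63 CPM in Col-0 (5.89 ± 0.31, adjusted p = 7.34e-07). No ligand is stated here for either.

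RLP20 (AT2G25440) had 124, 144 and 97 counts in prp4k3 and 0, 3 and 1 counts in Col-0, and rose by 5.75 ± 0.45 (adjusted p = 4.54e-06). Its size depended on 1 library: the log2 fold change was 6.98 without Col-0 replicate 2. RLP28 (AT2G33080) had 114, 106 and 81 counts in prp4k3 and 3, 1 and 1 counts in Col-0. It rose by 5.17 ± 0.36 (adjusted p = 2.75e-06), or by 5.87 without Col-0 replicate 1. Both genes were thus close to the detection limit in Col-0 and readily counted in prp4k3.

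RLP34 (AT3G11010) reached the highest CPM of the family, 189.5, 132 and 146 CPM in prp4k3, against 4.57, 6.04 and 5.26 CPM in Col-0. It rose by 4.88 ± 0.18 (adjusted p = 2.9e-07), with a smaller standard error than the other 5. Unlike RLP20 and RLP39 it was measured with 62 to 89 counts per Col-0 library, so its fold change does not lean on single reads.

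A further 21 members rose, apart from the 6 largest and from RLP1, RLP32, RLP42 and RLP52. Well above the Col-0 level were RLP7 (4.63 ± 0.28), RLP43 (4.46 ± 0.24), RLP53 (4.44 ± 0.55), RLP38 (4.28 ± 0.24) and RLP24 (3.45 ± 0.54). RLP38 was the most abundant of these, with 107, 88.3 and 65.3 CPM in prp4k3, against 3.25, 4.68 and 5.48 CPM in Col-0. RLP53 and RLP24 had 8 and 4 counts in Col-0 and depended on single libraries: RLP53 was at 5.80 without Col-0 replicate 3, and RLP24 at 4.73 without Col-0 replicate 1 and 2.85 without Col-0 replicate 2. RLP22 had 63 counts in prp4k3 and 2 in Col-0, a ratio of 19.9 with an exact 95% counting interval of 5.28 to 168.

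Rises of between 2 and 3.1 on the log2 scale were found in RLP19, RLP50, RLP21, RLP35, RLP33, RLP46, RLP37, RLP2 and RLP47. RLP37 and RLP47 were already expressed in Col-0, RLP37 with 68.0, 67.1 and 49.8 CPM in prp4k3 and 10.3, 12.8 and 11.2 CPM in Col-0, and RLP47 with 56.1, 47.4 and 53.1 CPM in prp4k3 and 11.9, 10.5 and 14.1 CPM in Col-0. RLP21 was at 2.87 with all libraries and at 3.56 without Col-0 replicate 3. Smaller rises were those of RLP9 (1.27 ± 0.23), RLP12 (1.14 ± 0.41), RLP54 (1.05 ± 0.14), RLP36 (0.97 ± 0.17), RLP27 (0.90 ± 0.26) and RLP13 (0.55 ± 0.14). RLP12 was the least secure of them: its adjusted p was 0.0313, and between 0.0651 and 0.0946 without prp4k3 replicate 1 or 3 or without Col-0 replicate 2 or 3. RLP27 missed the threshold in the fit lacking prp4k3 replicate 1 (0.76, adjusted p = 0.0505).

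The members with roles in growth did not share in the rise. RLP44 (AT3G49750), which couples changes in the cell wall to brassinosteroid signalling, had 0.917, 0.697 and 1.099 CPM in prp4k3, against 2.66, 3.05 and 3.18 CPM in Col-0. Its groups lay apart, and it showed the largest fall of the family, -1.71 ± 0.23 with trimmed-mean scaling (adjusted p = 0.000131) and -0.87 with total-count scaling (adjusted p = 0.00626). Of the 3 partners listed for RLP44, PSKR1, a receptor of the growth peptide phytosulfokine, rose by 0.87 ± 0.12 (adjusted p = 0.000117). The co-receptor BAK1 rose by 0.37 ± 0.10 (adjusted p = 0.00961), and the brassinosteroid receptor gene BRI1 had a log2 fold change of 0.13 ± 0.11 (adjusted p = 0.303), or 0.98 with total-count scaling (adjusted p = 2.38e-05).

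TMM (AT1G80080) acts in stomatal patterning together with ERECTA-family kinases and was the most abundant RLP transcript per length of gene in Col-0. It had 7.29, 7.95 and 9.07 CPM in prp4k3, against 15.3, 16.2 and 13.8 CPM in Col-0. The groups lay apart (-0.90 ± 0.13, adjusted p = 0.000232). With total-count scaling TMM lay at -0.06 (adjusted p = 0.701), which makes the fall one relative to most other features. Among 9 genes of the same pathway, 2 rose and 4 fell with trimmed-mean scaling, beside 33.9% and 31.9% of all features, and 4 rose and 2 fell with total-count scaling, beside 67.1% and 9.81% of all features. The peptide genes had the largest falls of the list: STOMAGEN, which promotes stomata, lay at -2.05 ± 0.14 (adjusted p = 2.43e-06), EPF2 at -1.55 ± 0.22 (adjusted p = 0.000209) and EPF1 at -1.23 ± 0.31 (adjusted p = 0.00563). EPF1 missed the threshold with total-count scaling (-0.39, adjusted p = 0.265).

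SPCH, the factor that starts the stomatal lineage, was also called lower with trimmed-mean scaling (-0.76 ± 0.22, adjusted p = 0.011), but its log2 fold change was 0.08 with total-count scaling (adjusted p = 0.771), and it lost its call without Col-0 replicate 2 (adjusted p = 0.0554). The kinase genes ERL1 and ERL2 rose by 0.94 ± 0.25 and 0.54 ± 0.18, while ER had 0.14 ± 0.11, MUTE -0.26 ± 0.25 and FMA 0.04 ± 0.15, none of the last 3 called. ERL2 lost its call without prp4k3 replicate 1 or 3 or Col-0 replicate 2 or 3, with an adjusted p between 0.0586 and 0.0934. The 4 guard cell markers summed to between 17.7 and 21.4 CPM in prp4k3 and between 38.2 and 43.0 CPM in Col-0. MYB60 and AT1G22690 were called lower and KAT1 higher among them, none was at 0, and their part in the TMM values was not tested.

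CLV2 (AT1G65380) did not pass the test: it had 2.88, 3.35 and 2.29 CPM in prp4k3 and 3.39, 2.65 and 2.74 CPM in Col-0, with overlapping groups (-0.04 ± 0.20, adjusted p = 0.865). Under total-count scaling it lay at 0.80 (adjusted p = 0.00497), near the median of all features on that scale. Its partner kinases of the CLV1 class were lower on the trimmed-mean scale: CLV1 lay at -0.93 ± 0.12, BAM1 at -1.03 ± 0.11 and BAM2 at -1.37 ± 0.18, with adjusted p between 3.06e-05 and 9.94e-05. With total-count scaling only BAM2 of these was called (-0.52, adjusted p = 0.0193), with CLV1 at -0.08 and BAM1 at -0.18. BAM3 rose by 0.49 ± 0.12 (adjusted p = 0.00486). CRN, the membrane pseudokinase that pairs with CLV2, was called at -0.64 ± 0.25 (adjusted p = 0.0466), but its groups overlapped, and it lay at -0.35 without Col-0 replicate 3 (adjusted p = 0.209) and at 0.20 with total-count scaling (adjusted p = 0.477). The peptide gene CLV3 had 0 counts in prp4k3 and 3 in Col-0 and was not tested.

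RLP26 (AT2G33050), for which no role is given here, was the fourth member called lower. It had 4.85, 3.996 and 4.63 CPM in prp4k3 and 6.57, 8.55 and 7.78 CPM in Col-0 (-0.77 ± 0.16, adjusted p = 0.00177). Total-count scaling put it at 0.08 (adjusted p = 0.685). Members that did not pass, beside RLP3 and CLV2, were RLP31 (0.08 ± 0.17), RLP56 (-0.02 ± 0.37), RLP45 (-0.33 ± 0.17), RLP14 (-0.36 ± 0.20) and RLP57 (-0.44 ± 0.19). RLP45 and RLP57 had all 3 prp4k3 libraries below all 3 Col-0 libraries without being called. Under total-count scaling RLP31 and RLP45 were called higher (0.92 and 0.51), RLP56, RLP14 and RLP57 lay at 0.81, 0.48 and 0.40, and RLP31 turned to -0.035 without Col-0 replicate 3.

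Of the 6 loci with a row that were not tested, RLP48 had 21 counts in prp4k3 and 9 in Col-0, and RLP6 had 7 counts in prp4k3 and 8 in Col-0. RLP15 had 3 counts and RLP25 and RLP55 had 1 count each in prp4k3, with 0 in Col-0, so no fold is given. RLP30 is the remaining one. The loci AT3G24954 and AT4G13900, the second named RLP49, were not analysed here.

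The order of RLP genes by level differed between the genotypes. Levels were compared between genes as mean CPM per kilobase of gene span, introns included. In prp4k3 the order began with RLP23 at 52.0, RLP34 at 44.6, RLP38 at 36.2, RLP41 at 26.7 and RLP37 at 24.6 CPM per kilobase. In Col-0 it began with TMM at 8.24, RLP37 at 4.56, RLP54 at 4.47, RLP47 at 3.995 and RLP26 at 2.86 CPM per kilobase. Not divided by gene span, RLP23 and RLP34 averaged 148 ± 24.5 and 156 ± 30.0 CPM in prp4k3 (SD, n = 3). RLP37 and RLP54 averaged 11.4 ± 1.27 and 12.4 ± 1.13 CPM in Col-0. The order within each pair was thus the reverse of that per kilobase. Differences between genes measured in the same libraries were not tested. TMM, first in Col-0, was at 4.42 CPM per kilobase in prp4k3, below 12 other members. RLP23 and RLP34 had 1.68 and 1.52 CPM per kilobase in Col-0, below 9 and 10 other members.

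Within groups of neighbouring loci the members differed in both level and fold change. The listed loci form 11 such groups by locus number. In the group RLP24 to RLP28, RLP24 and RLP28 rose by more than 3 on the log2 scale and RLP27 by 0.90, while RLP26, which lies between them, was called lower (not under total-count scaling), and RLP25 had 1 count. The fold changes of that group spanned 5.93 on the log2 scale. RLP30 had 0 counts in its group with RLP31, and RLP3 was not called beside RLP2, which rose by 2.25 ± 0.39. In the group of RLP39, RLP41 and RLP42 all 3 measured members rose by more than 4.

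Because reads may be divided between such neighbours, their counts were also summed and tested in place of the single loci. Only listed loci were summed. Reads shared with RLP40 (AT3G24982) or RLP16 (AT1G74200), numbered within or beside such groups but outside the list, are not covered. The sum was called higher in 10 of the 11 groups, the exception being RLP30 with RLP31 (0.08 ± 0.17, adjusted p = 0.672). In the main fit 33.9% of all features were called higher. The same 10 groups already held a single member called higher, so the sums add no separate count of rises. The sum of RLP39, RLP41 and RLP42 rose by 5.74 ± 0.27 (adjusted p = 4.95e-07), and that of RLP36, RLP37 and RLP38 by 3.05 ± 0.17 (adjusted p = 8.31e-07). The sum of RLP24 to RLP28 rose by only 0.48 ± 0.13 (adjusted p = 0.0104), RLP26 being the most abundant of the group in Col-0, and missed the threshold in the fit lacking prp4k3 replicate 1 (0.39, adjusted p = 0.0503). The sum of RLP13 to RLP15 was the least secure (0.34 ± 0.14, adjusted p = 0.046), with an adjusted p between 0.0533 and 0.169 in 8 alternatives.

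**Figure D3:**
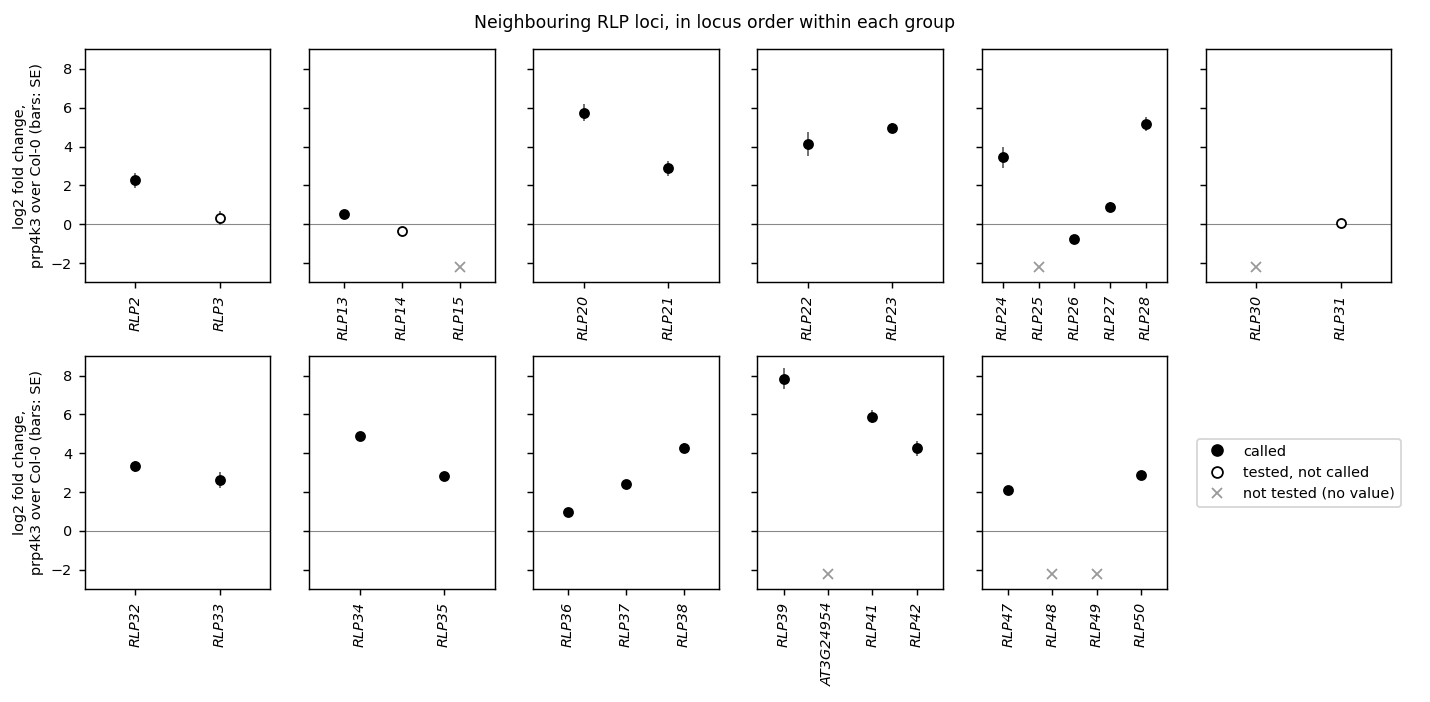
Log2 fold change of prp4k3 over Col-0 with its standard error for members of the 11 groups of neighbouring RLP loci, in locus order (filled where called, open where not, grey crosses at the bottom for loci not tested). Neighbours differ widely in the group RLP24 to RLP28, between -0.77 for RLP26 (0.075 with total-count scaling) and 5.17 for RLP28, while RLP39, RLP41 and RLP42 all lie above 4.

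Genes next to RLP loci were called higher at a share near that of all features. Genes flanking the 42 tested members, taken as the nearest protein-coding gene outside the family on each side in the reference table, numbered 70, of which 46 were tested. Of these 39.1% were called higher and 26.1% lower, beside 33.9% and 31.9% of all features, and their median log2 fold change was 0.098. For the genes flanking the 31 risen members the values were 38.9%, 25% and 0.061. Of the members with a row, 17 overlap another annotated gene, and for 11 of them that gene has its own row, with between 31 and 3214 counts in all. Whether strand was used in counting is not given, so the counts of these members may hold or lack reads of the partner.

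The prp4k3 libraries were not equally high. Among the 31 members called higher, prp4k3 replicate 1 had the highest CPM in 18, replicate 2 in 6 and replicate 3 in 7. Over all features called higher, replicate 1 was highest in 26.6%, beside 58.1% of these members. The coefficient of variation of these members had a median of 17.9% in prp4k3 and 33.4% in Col-0. That library also held the highest sum of shoot apex and flower markers, 9.17 CPM, and the part of this in the RLP levels was not tested. Without prp4k3 replicate 1 the counts were 29 higher and 4 lower.

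The genes listed as RLP signalling partners, which include BIR1 and other regulators of the co-receptors, were mostly higher as well. Of 20 listed partners, all tested, 15 rose and 2 fell, with a median log2 fold change of 1.28, beside 33.9% and 31.9% of all features called, and with total-count scaling 18 rose and 0 fell, beside 67.1% and 9.81% of all features. SOBIR1, the adaptor kinase that RLPs need for stability and signalling, had 487, 447 and 419 CPM in prp4k3, against 57.9, 51.4 and 89.2 CPM in Col-0. The groups lay far apart, with Col-0 replicate 3 the highest of its group as it was for RLP23 (2.77 ± 0.20, adjusted p = 2.83e-06). The co-receptor genes SERK4, also named BKK1, and BAK1 rose by 1.303 ± 0.14 and 0.37 ± 0.10, whereas SERK2 was called lower (-1.02 ± 0.16), though not with total-count scaling (-0.18, adjusted p = 0.319), and SERK1 was not called (0.11 ± 0.22). AT1G27190 was the other partner called lower (-0.55 ± 0.14, adjusted p = 0.00571), and it lay at 0.29 with total-count scaling. BIR1, which holds back BAK1 and SOBIR1 signalling, rose by 2.78 ± 0.15, and BIR2 (AT3G28450) rose by 1.25 ± 0.13.

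EDS1 had the largest rise of the 20 partners, and the other genes of the EDS1 node, a set of lipase-like proteins and helper immune receptors, rose with it. EDS1 had 57.6, 68.0 and 53.5 CPM in prp4k3, against 4.35, 4.55 and 5.55 CPM in Col-0 (3.63 ± 0.15, adjusted p = 3.62e-07). Its partner SAG101 had 40.0, 36.7 and 36.8 CPM in prp4k3 and 5.53, 5.97 and 5.70 CPM in Col-0 (2.72 ± 0.11, adjusted p = 3.62e-07). PAD4 had 69.0, 64.7 and 73.7 CPM in prp4k3 and 11.2, 10.2 and 11.8 CPM in Col-0 (2.64 ± 0.12, adjusted p = 3.79e-07). In these 3 genes the groups were far apart, as they were in ADR1, ADR1-L1 and ADR1-L2, which rose by 2.22 ± 0.14, 1.95 ± 0.11 and 1.80 ± 0.14.

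Cytoplasmic kinases of the partner list moved less. BIK1, a kinase shared by many surface receptors, rose by 0.68 ± 0.16 (adjusted p = 0.00377), while its relative PBL1 did not pass (0.35 ± 0.15, adjusted p = 0.0578), although it did without Col-0 replicate 2 (0.45, adjusted p = 0.0424), with organelle and rRNA genes left out (0.37, adjusted p = 0.0441) and with total-count scaling (1.19, adjusted p = 4.93e-05). Kin3 rose by 1.37 ± 0.16, CST by 0.53 ± 0.11 and AT1G76360 by 0.56 ± 0.15. RBOHD, the oxidase of the immune burst, was at 113, 137 and 108 CPM in prp4k3 and 109, 101 and 155 CPM in Col-0, and did not pass (-0.03 ± 0.17, adjusted p = 0.887). It lay at 0.82 with total-count scaling (adjusted p = 0.00114), close to the median of all features there.

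**Figure D4:**
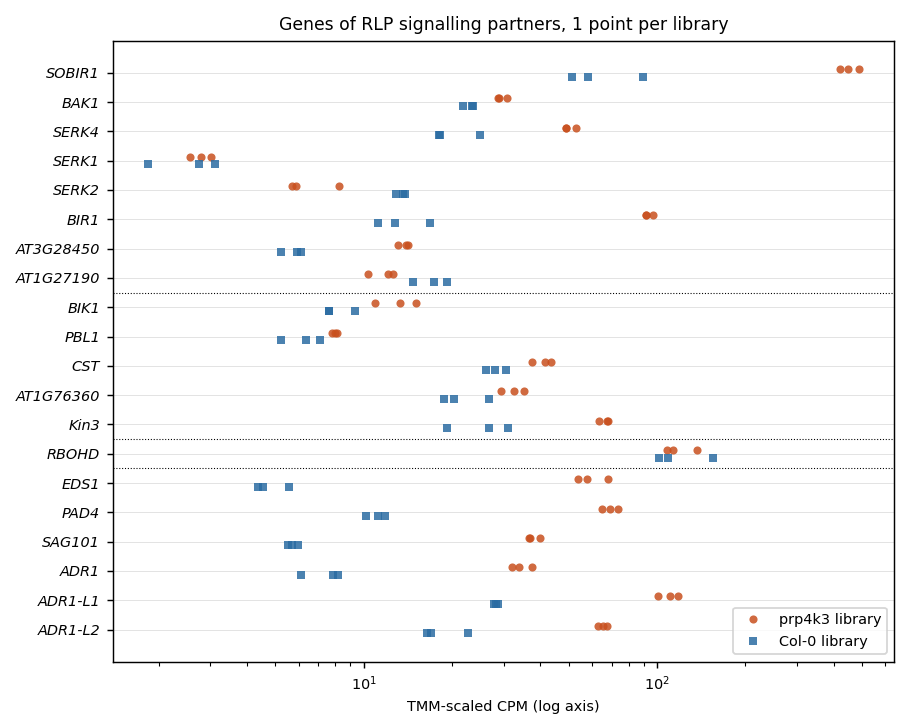
CPM on a log axis for 20 genes of RLP signalling partners, 1 point per library (circles prp4k3, squares Col-0). Dotted lines part co-receptors and their regulators, cytoplasmic kinases, the oxidase RBOHD and the EDS1 node, and the widest gaps between the groups are those of SOBIR1, BIR1 and the EDS1 node genes.

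Loci outside the list that carry an RLP number in the reference table were read in the same fit. RLP11 had 124, 50 and 85 counts in prp4k3 and 0 in all 3 Col-0 libraries, at least 54.4-fold higher against 3 counts over the Col-0 group. RLP40 had 213 counts in prp4k3 and 2 in Col-0 and was called higher (adjusted p = 1.14e-05), and RLP16 rose by 1.32 ± 0.40 (adjusted p = 0.0155). RLP4 did not pass (0.11 ± 0.13, adjusted p = 0.447), RLP29 was not tested, and RLP5 had 0 counts. Of 47 listed members with an adjusted p in the authors' deposited table, 31 pass 0.05 as higher and 4 as lower in prp4k3, beside 24.8% and 21.1% of the 28246 features with a value in the authors' deposited table.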

How the data were processed

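Total RNA of leaves was sequenced from stranded total RNA libraries, per the labels' protocols. The submitters' processing notes name TopHat2, SAMtools, HTSeq and edgeR; neither versions, nor roles, nor a genome build are given in the sources used here. The deposited table holds raw counts per feature and scaled counts rounded by the authors, a score used in no test. Its fold change (a ratio), log2 fold change and p-values are the authors' deposited comparison.

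The whole table was fitted with edgeR 4.0.16 (R 4.3.3): filterByExpr (minimum count 10), trimmed-mean (TMM) scaling, quasi-likelihood F-test without a replicate block, and Benjamini-Hochberg adjustment over 18609 features. Standard errors are the log2 fold change over the root of F. The procedure was tested on simulated data of 18609 features, with 100 changed by 1 and 100 by 2 on the log2 scale, in both directions. It recovered 73% and 100% of these, and 8.95% of calls were false, above the nominal threshold. Far fewer features changed there than were called in the data, so the simulation does not check the scaling. Members and lists were chosen with earlier results of these data known. Names and gene spans are from RefSeq TAIR10.1, which matched 49 of 50 loci; for AT1G27190, CST, AT1G76360, Kin3 and AT1G22690 it gives no name under which they were listed.

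Described in full were members with a known role, the 6 largest called rises and all 4 called falls, SOBIR1 and the 3 other partners of lowest adjusted p; RLP37, RLP38, RLP47, RLP53, RLP24, RBOHD and loci outside the list were chosen after seeing their values. Other settings tried were RLE factors, total-count scaling, organelle and rRNA genes left out, DESeq2 1.42.0, the likelihood ratio test, limma-voom (limma 3.58.1), 2 other filters, a replicate block and each library left out. Depth intervals and floors cover counting error only. No libraries within a group agreed to within sampling noise (chi-square per degree of freedom 6.93 to 16.9). Small RNA and se-2 libraries were not analysed here.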

Additional observations from a re-analysis of the deposited data

How the results depend on the processing

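Of the 31 members called higher, 29 kept call and direction in all 15 alternatives fitted (RLP12 and RLP27 did not), and of the 4 called lower RLP44 and RLP51 did wherever they were tested. Across the leave-one-out fits the members called higher numbered 29 to 31 and those called lower 4, the partners 15 to 16 and 2, the CLV2 pathway genes 4 to 5, the TMM pathway genes 4 to 6, the sums of neighbouring loci 8 to 10, and the members' median log2 fold change was 2.37 to 2.48. Total-count scaling gave 2 members and 0 partners lower, 2 CLV2 pathway genes called and a median of 3.31, with 2.28 without a filter on low counts, where 47 members enter. The filter of 1 CPM in 3 libraries left out RLP51, so 3 members were lower.

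Under total-count scaling 67.1% of all features were called higher, and which scaling is nearer to the RNA content was not tested. Signs that turned there were those of CLV2 (0.80), RLP14 (0.48), RLP26 (0.075), RLP45 (0.51), RLP56 (0.81) and RLP57 (0.40). Beyond the members, those of AT1G27190 (0.29), RBOHD (0.82), CRN (0.20), SPCH (0.075) and MUTE (0.58) turned. Uncalled values near 0 turned in leave-one-out fits, where CLV2 ranged between -0.185 and 0.084, RLP3 between -0.022 and 0.549, RLP31 between -0.035 and 0.214, its sum with RLP30 between -0.034 and 0.215, RLP56 between -0.18 and 0.24, SERK1 between -0.083 and 0.274, RBOHD between -0.154 and 0.17 and FMA between -0.087 and 0.122. Without a filter RLP56 lay at 0.01 and RBOHD at 0.004, and the cause was not tested.

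Samples share replicate numbers but not evidently more: deviations of same-numbered samples correlated between -0.0513 and 0.0559, and 1 of 6 samples correlated best with its own number. With the replicate block 6122 features were called higher and 5753 lower, against 6310 and 5943 without it, the members stayed at 31 higher and 4 lower, and CRN (adjusted p = 0.0541) and the sum of RLP13 to RLP15 (adjusted p = 0.0835) were not called. Depth limits genes with few Col-0 reads, such as RLP39, RLP22, RLP20 and RLP24, whose fold changes are known only roughly.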
